A study of Arabidopsis thaliana with 24 samples.

Results

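The early step of seed maturation drying was taken here as the difference between seeds of 17 and of 15 days after flowering (DAF) in Arabidopsis thaliana genotypes whose seeds are listed as desiccation tolerant in the study's design. It rests on 6 of the 24 deposited libraries: the 17 DAF libraries of Ws, Ler and abi3-1, set against the 15 DAF libraries of the same genotypes and paired by genotype. Ws (Wassilewskija) and Ler (Landsberg erecta) are wild types. The mutant abi3-1 carries a weak allele of the regulator gene ABI3 in the Ler background. Its sample labels give its seeds as desiccation intolerant and the series design as tolerant, and the design was followed. All plants were soil-grown in long days with no other treatment, and seeds were dissected from siliques of 24 plants. Collections were made in triplicate, but RNA of each genotype and day was pooled and amplified by in vitro transcription, so each genotype and day is 1 library sequenced on the SOLiD platform. The 3 genotypes therefore serve as repeats, and p-values measure the spread between genotypes, not between plants. They are not equal repeats, since Ler and abi3-1 share a background and abi3-1 is mutated in a regulator of seed maturation. The wild type Col-0 and the mutant lec2-1 were not used here, and in lec2-1 the columns of 15 and 17 DAF were identical.

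Between reserve filling and drying an Arabidopsis embryo stops making oil and storage protein, loses its chlorophyll and gathers molecules that keep cells intact when water is lost. These include late embryogenesis abundant (LEA) proteins, small heat shock proteins and oligosaccharides of the raffinose family. The process is under the control of abscisic acid (ABA) and of transcription factors such as ABI3, FUS3, LEC1 and ABI5, several of which bind the ABA-response element, with its core ACGTG, or the RY repeat, CATGCA, in front of seed genes.

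Library totals ran from 2391367 to 4099246 counts in the 6 libraries. Levels below are CPM, counts scaled to library size and corrected by the trimmed mean of M values (TMM), and 3 values in a row are always those of Ws, Ler and abi3-1 in that order. Seed identity was clear in each library: seed storage protein genes, led by the cruciferin CRC, took 54.7, 57.4 and 54.5% of all counts at 17 DAF, and 62.5, 62.3 and 56.2% at 15 DAF. Of 6 silique wall markers 1 had enough counts to be tested (SHP2, 2.67, 4.47 and 4.96 CPM at 17 DAF and 1.29, 6.82 and 7.82 CPM at 15 DAF), and of 7 early endosperm and endosperm markers 1. This was EPR1, at 989.9, 628 and 494 CPM at 17 DAF and 750.2, 691 and 244 CPM at 15 DAF, while no counts were found for FWA, PHE1, AGL62 and ALE1. None of 11 cell cycle genes had enough counts to be tested.

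The genotypes differed in their levels on both days, and the Ler library of 17 DAF stood apart. Summed over 38 LEA genes, the level was 68459.7, 29802 and 75112 CPM at 17 DAF, against 33928, 15508 and 9691 CPM at 15 DAF, so Ler at 17 DAF lay below Ws at 15 DAF. Summed over 46 photosynthesis genes, it was 386, 1232 and 211 CPM at 17 DAF, against 501, 2784 and 2908 CPM at 15 DAF, so Ws was already low at 15 DAF and Ler was still above that level at 17 DAF. The 8 testable seed coat genes summed to 179, 439.7 and 168 CPM at 17 DAF, against 233, 291 and 363 CPM at 15 DAF, and Ler at 17 DAF was the highest of the 6. Across 12112 genes, the log2 level at 17 DAF correlated with the same genotype's 15 DAF library at 0.910 in Ws, 0.865 in Ler and 0.760 in abi3-1, and with its 21 DAF library at 0.812, 0.649 and 0.809 in the same order. The log2 ratios of 17 over 15 DAF had correlations of 0.124 between Ws and Ler, 0.474 between Ws and abi3-1 and 0.241 between Ler and abi3-1. These are descriptions across genes, which share libraries and are not replicates. Whether the seed stage, the seed coat share or the handling of this library set its place was not tested.

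**Figure D1:**
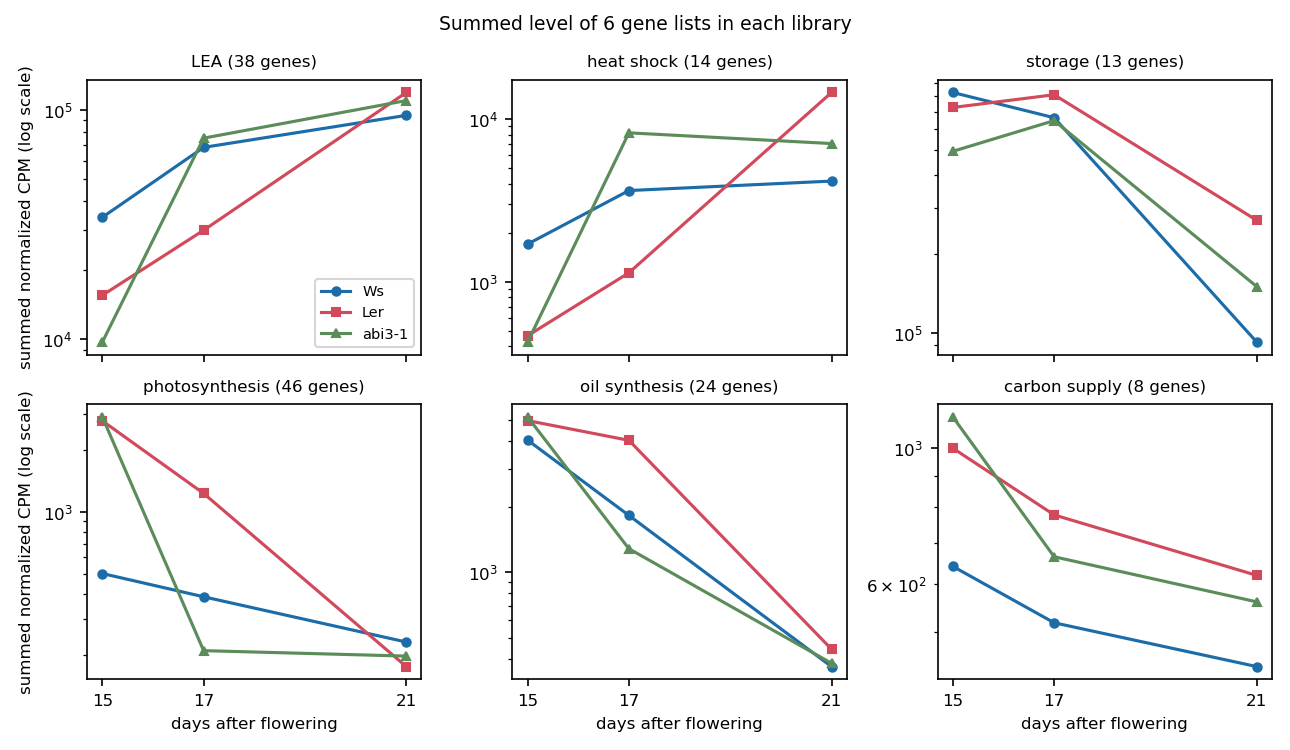
Summed level of 6 gene lists in each library (vertical axes, normalized CPM, log scale) against days after flowering, with 1 line for each genotype and 1 library for each point. Ler at 17 DAF lies below Ws and abi3-1 for LEA and heat shock genes and above them for photosynthesis and oil synthesis genes.

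Few single genes passed the test between 17 and 15 DAF. A model with a term for each genotype and each day, fitted over the 9 libraries of 15, 17 and 21 DAF with edgeR's quasi-likelihood test, called 7 of 12112 genes (0.0578%) at a Benjamini-Hochberg adjusted p under 0.05. Of these, 3 were higher (0.0248%) and 4 were lower (0.033%) at 17 DAF. At an unadjusted p under 0.05 there were 803 higher genes (6.63%) and 1061 lower genes (8.76%). In all 3 pairs 2043 genes (16.9%) were higher and 2519 (20.8%) lower at 17 DAF. Every 17 DAF library lay above every 15 DAF library in 903 of the 12112 genes and below in 1018. A lack of overlap between the days, given below for single genes, is to be read beside these counts. DESeq2 called 181 higher (1.49%) and 118 lower genes (0.974%). Without the Ler library of 17 DAF edgeR called 257 higher (2.13%) and 417 lower genes (3.45%) of 12082. Without all Ler libraries it called 68 higher (0.601%) and 142 lower genes (1.26%) of 11307, and without all Ws or all abi3-1 libraries 0, with 1318 and 641 genes at an unadjusted p under 0.05. The count thus depends on which libraries are compared, and a fit without a genotype also has fewer pairs. Scaled by library totals alone, 15 genes were called higher and 10 lower.

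The 3 genes that rose are shown first by the 300 bases in front of each gene, since ABA-response cores in such windows are a feature of late maturation genes. The sequences are RefSeq's TAIR10.1 sequence read 5′ to 3′ on the strand of the gene, up to the base before its annotated start. Capitals mark ACGTG or CATGCA on either strand.
AT1G08170, minus strand, chr1:2563707-2564006: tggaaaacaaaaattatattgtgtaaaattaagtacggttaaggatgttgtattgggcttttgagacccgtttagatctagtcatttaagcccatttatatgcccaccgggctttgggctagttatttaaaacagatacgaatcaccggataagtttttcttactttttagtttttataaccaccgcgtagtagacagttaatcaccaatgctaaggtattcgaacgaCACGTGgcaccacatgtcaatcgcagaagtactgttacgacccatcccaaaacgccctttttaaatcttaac
AT1G67920, plus strand, chr1:25473244-25473543: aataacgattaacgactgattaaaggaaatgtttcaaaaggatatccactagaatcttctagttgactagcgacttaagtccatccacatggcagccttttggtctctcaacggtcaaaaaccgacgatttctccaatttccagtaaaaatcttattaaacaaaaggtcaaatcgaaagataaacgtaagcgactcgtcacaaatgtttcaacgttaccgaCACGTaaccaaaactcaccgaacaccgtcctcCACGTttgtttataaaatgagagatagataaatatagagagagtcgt
AT5G05320, minus strand, chr5:1576732-1577031: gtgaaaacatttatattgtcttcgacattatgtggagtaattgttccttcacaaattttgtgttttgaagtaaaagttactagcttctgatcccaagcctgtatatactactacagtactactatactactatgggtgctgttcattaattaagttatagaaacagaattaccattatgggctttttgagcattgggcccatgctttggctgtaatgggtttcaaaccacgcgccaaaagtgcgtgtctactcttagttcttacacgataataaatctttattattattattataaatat
AT1G08170 has the palindrome CACGTG, which holds the core once on each strand, AT1G67920 has 2 separate cores, and the window of AT5G05320, which runs into the neighbouring gene AT5G05330, holds neither motif. The ACGTG core was present in 26.9% and CATGCA in 8.88% of the 300-base windows of 12019 tested nuclear genes. A match is a run of letters and not a shown binding site.

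AT1G08170, annotated as a histone superfamily protein, had 39.7, 22.9 and 27.3 CPM at 17 DAF, against 7.77, 3.13 and 2.50 CPM at 15 DAF. Every 17 DAF library was above every 15 DAF library, and Ws was the highest on both days. The log2 fold change was 2.84 ± 0.36 (SE, n = 3 pairs; adjusted p = 0.0172). The gene lies on chromosome 1 at 2562769-2563706 of TAIR10.1. AT1G67920, an uncharacterized protein gene at chromosome 1, 25473544-25474140, had 34.8, 16.8 and 36.2 CPM at 17 DAF, against 4.32, 1.71 and 4.07 CPM at 15 DAF. The days did not overlap, Ler was the lowest on both, and the log2 fold change was 3.14 ± 0.43 (adjusted p = 0.0220). AT5G05320, an oxidoreductase of the FAD/NAD(P)-binding family at chromosome 5, 1574862-1576731, had 54.4, 36.3 and 70.9 CPM at 17 DAF, against 12.1, 8.81 and 7.51 CPM at 15 DAF. Its days did not overlap either, with abi3-1 both the lowest at 15 DAF and the highest at 17 DAF, and its log2 fold change was 2.50 ± 0.36 (adjusted p = 0.0264).

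Among the 4 genes that fell were 2 neighbours on chromosome 5, AT5G38160 (15225767-15226208) and AT5G38170 (15227638-15228081), both annotated in the superfamily of protease inhibitors, lipid-transfer proteins and 2S albumins. AT5G38160 had 0.446, 18.4 and 6.94 CPM at 17 DAF, against 10.8, 128 and 193 CPM at 15 DAF. Ler at 17 DAF was above Ws at 15 DAF, so the days overlapped across genotypes while each pair fell, and the log2 fold change was -3.72 ± 0.50 (adjusted p = 0.0220). AT5G38170 had 0.891, 5.03 and 2.98 CPM at 17 DAF, against 6.04, 80.8 and 85.1 CPM at 15 DAF. Here the days did not overlap, Ws at 15 DAF was far below the other 15 DAF libraries, and the log2 fold change was -4.10 ± 0.46 (adjusted p = 0.00932). In both genes the Ws level at 17 DAF rests on very few counts, so the size of the fall in Ws is poorly set. These neighbours may share reads, since how reads with several matches were counted is not given in the sources used here, so they may not be independent. The windows in front of both hold the ABA-response core and the RY repeat, which neither of the other lower genes pairs.

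CYP702A1 (AT1G65670), a cytochrome P450, had 2.23, 10.6 and 5.95 CPM at 17 DAF, against 10.4, 74.5 and 43.8 CPM at 15 DAF. Each pair fell, though Ler at 17 DAF stood just above Ws at 15 DAF, and the log2 fold change was -2.69 ± 0.40 (adjusted p = 0.0327). AT5G49180, of the superfamily of plant invertase and pectin methylesterase inhibitors, had 0, 0 and 0.496 CPM at 17 DAF, against 2.16, 10.8 and 19.1 CPM at 15 DAF. It had 1 count in all at 17 DAF, against 104 counts at 15 DAF. After scaling the level at 15 DAF was 69.7 times that at 17 DAF, with a 95% interval of 12.2 to 2778 that covers counting error only (adjusted p = 0.0327). No called gene kept its call in every alternative fit. Of 21 alternatives, AT5G05320 and CYP702A1 were not called in 10, AT5G38160 in 8, AT1G08170 and AT1G67920 in 7 and AT5G38170 in 5. AT5G49180 was called in 8 of the 16 that held it.

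**Figure D2:**
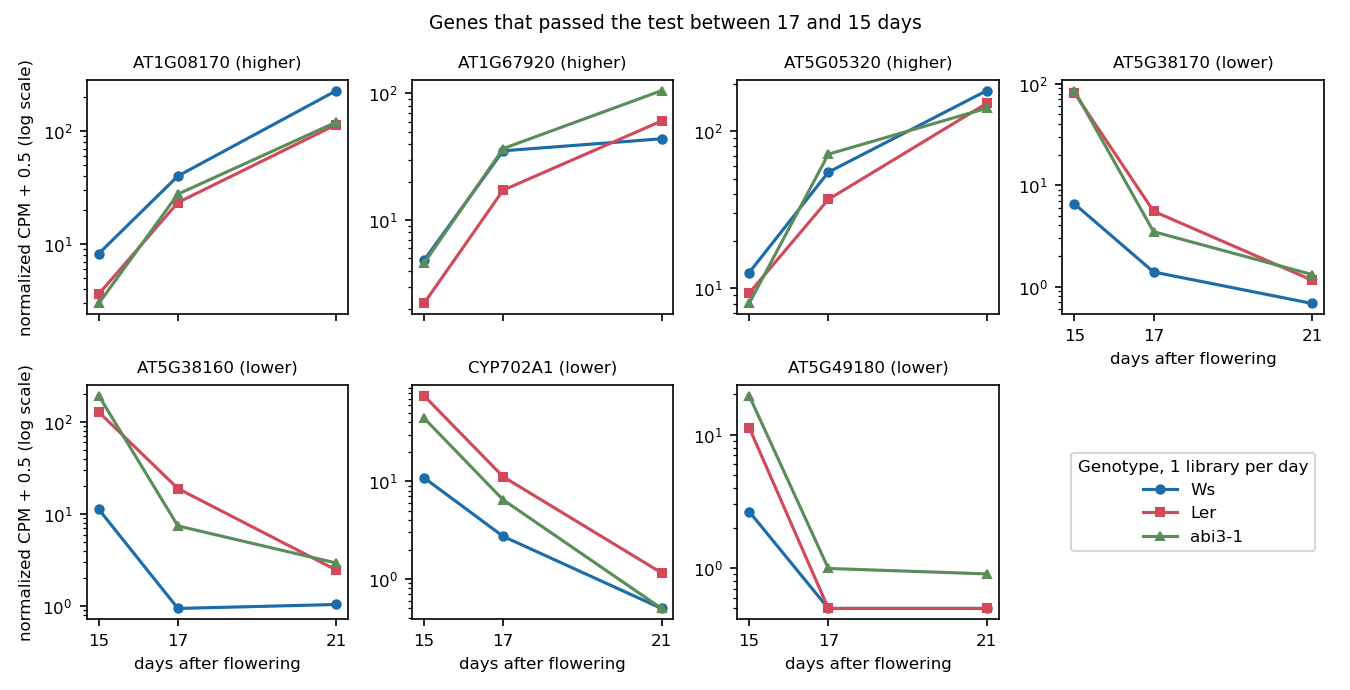
Level of the 7 genes that passed the test (vertical axes, normalized CPM plus 0.5, log scale) against days after flowering, with 1 line for each genotype and 1 library for each point. AT1G08170, AT1G67920 and AT5G05320 are higher at 17 than at 15 DAF in every genotype, and the other 4 are lower in every genotype.

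The genes next in line did not pass the test, with adjusted p between 0.0545 and 0.0726, and were chosen among those with 1 direction in all 3 pairs. On the higher side, GOLS2, a galactinol synthase that makes the first committed precursor of raffinose, had 77.6, 36.3 and 116 CPM at 17 DAF, against 13.4, 9.67 and 8.45 CPM at 15 DAF (log2 fold change 2.72 ± 0.45, adjusted p = 0.0545). All 17 DAF libraries were above all 15 DAF libraries. AT1G68570, a major facilitator superfamily transporter, had 21.8, 16.8 and 77.4 CPM at 17 DAF, against 2.16, 5.12 and 2.81 CPM at 15 DAF (log2 fold change 3.36 ± 0.55, adjusted p = 0.0545), with abi3-1 at 17 DAF far above the rest. NRT2.7, a nitrate transporter that loads nitrate into seed vacuoles, had 95.4, 12.8 and 47.1 CPM at 17 DAF, against 30.2, 1.42 and 2.19 CPM at 15 DAF (log2 fold change 2.82 ± 0.51, adjusted p = 0.0720). Ler at 17 DAF was below Ws at 15 DAF for this gene. The others were the cold-regulated protein gene AT3G03341 with a log2 fold change of 2.06 ± 0.35, AT5G56100 (annotated as glycine-rich protein or oleosin) with 1.95 ± 0.35, the homocysteine methyltransferase HMT3 with 2.49 ± 0.46, and AT2G25625 (annotated as histone deacetylase-like) with 1.99 ± 0.37.

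On the lower side, NUDT3, a nudix hydrolase, had 50.4, 55.9 and 35.7 CPM at 17 DAF, against 160.1, 165 and 201 CPM at 15 DAF (log2 fold change -1.90 ± 0.33, adjusted p = 0.0571), with no overlap between days. BGLU29, a beta-glucosidase, had 20.9, 7.26 and 6.45 CPM at 17 DAF, against 54.4, 40.7 and 46.6 CPM at 15 DAF (log2 fold change -2.19 ± 0.39, adjusted p = 0.0571). Every 17 DAF library was again below every 15 DAF library. FAR1, a fatty acyl reductase that makes fatty alcohols for suberin, had 2.23, 2.79 and 3.47 CPM at 17 DAF, against 4.75, 41.5 and 27.2 CPM at 15 DAF (log2 fold change -2.82 ± 0.54, adjusted p = 0.0726). The fasciclin-like arabinogalactan protein gene FLA1 stood at a log2 fold change of -3.93 ± 0.69, the terpenoid cyclase family gene AT3G29190 at -4.15 ± 0.72, the alpha/beta-hydrolase gene AT2G18360 at -3.10 ± 0.53, and AT4G31340 (myosin heavy chain-like) at -2.29 ± 0.38. Without the Ler library of 17 DAF the 14 genes of these last paragraphs all passed, with adjusted p between 0.00101 and 0.0345. They were picked by p from the same libraries, so that is no separate support. Of the fits that leave out 1 library this one called the most genes. The fits without the Ler or the abi3-1 library of 15 DAF called 0. The same limits hold wherever this fit is quoted below.

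LEA genes, whose proteins are hydrophilic and protect membranes and enzymes in drying cells, stood higher at 17 DAF as a list. Of 49 listed, 38 had enough counts to be tested, 24 of them higher in all 3 pairs and 1 lower in all 3, and 0 were called. At an unadjusted p under 0.05, 24 were higher and 1 lower. The median log2 fold change was 1.48, with 1.03, 0.88 and 2.39 in the separate pairs, beside a median of -0.06 over all tested genes. DESeq2 called 18 of the 38 higher and edgeR 15 without the Ler library of 17 DAF, and neither called any lower. Over all tested genes DESeq2 called 1.49% higher and edgeR without that library 2.13%, and 16.9% were higher in all 3 pairs. The shares lower were 0.974, 3.45 and 20.8% in the same order. Counts of the next lists are to be read beside these shares too. A gene of low counts can pass the count filter through the day on which it is high, so the counts and medians of this and the next lists describe the tested members and support no direction.

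The group 5 LEA gene AT3G22490, a seed maturation protein, had 117, 73.7 and 324 CPM at 17 DAF, against 24.6, 3.41 and 1.88 CPM at 15 DAF (log2 fold change 4.27 ± 0.88, adjusted p = 0.0739). Its neighbour ATECP31 (AT3G22500), of the same family, had 275, 155 and 580.3 CPM at 17 DAF, against 92.4, 14.8 and 7.51 CPM at 15 DAF (log2 fold change 3.50 ± 0.80, adjusted p = 0.0834). In both genes the days did not overlap, and Ws started highest at 15 DAF while abi3-1 ended highest at 17 DAF. M10 had 339, 83.2 and 624 CPM at 17 DAF, against 51.8, 15.9 and 11.6 CPM at 15 DAF (log2 fold change 3.68 ± 0.75, adjusted p = 0.0739), and the dehydrin XERO2 had 27.2, 55.9 and 138 CPM at 17 DAF, against 6.47, 23.0 and 29.7 CPM at 15 DAF (log2 fold change 1.88 ± 0.36, adjusted p = 0.0731). Without the Ler library of 17 DAF these 4 genes passed, with adjusted p of 0.0119, 0.0202, 0.00594 and 0.00636 in this order.

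The best known members of the family shared the direction. EM6, a group 1 LEA protein, had 1369, 779 and 5183 CPM at 17 DAF, against 333, 57.2 and 32.8 CPM at 15 DAF, and its relative EM1 had 2477, 2871 and 4975 CPM at 17 DAF, against 1342, 527 and 175 CPM at 15 DAF. The log2 fold changes were 4.03 ± 1.05 and 2.48 ± 0.74, with adjusted p of 0.110 and 0.154. The dehydrin RAB18 had 31909.9, 7845 and 24900.4 CPM at 17 DAF, against 15764, 2853 and 1942 CPM at 15 DAF, and Ws at 15 DAF was above Ler at 17 DAF (log2 fold change 1.94 ± 0.72, adjusted p = 0.228). Some LEA genes did not share the direction: AT2G44060 had 4.46, 12.3 and 8.93 CPM at 17 DAF, against 12.1, 27.0 and 19.7 CPM at 15 DAF (log2 fold change -1.21 ± 0.39, adjusted p = 0.178), and AT3G02480 stood at -0.67 ± 0.43. The ACGTG core was in the 300-base window of 33 of the 38 LEA genes (86.8%), against 26.9% of all windows, and CATGCA in 8 (21.1%), against 8.88%. The core was not particular to lists that stood higher. It was in 87.5% of the windows of raffinose and inositol genes and in 69.2% of those of storage genes, lists with medians of -0.03 and -0.06. Heat shock genes, described next, had it in 28.6%.

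Heat shock proteins, the chaperones that bind unfolding proteins and that seeds make without heat, stood higher by the largest list median. Of 18 listed, 14 were tested, 11 were higher in all 3 pairs and none lower in all 3. At an unadjusted p under 0.05, 12 were higher and 0 lower, while 0 were called. The median log2 fold change was 2.33, and the pairs spread widely at 0.90, 1.43 and 3.86. DESeq2 called 4 and edgeR without the Ler library of 17 DAF 10 of the 14, all higher. Without the abi3-1 library of 17 DAF the median was 1.33.

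HSP17.6A had 579, 97.8 and 1955 CPM at 17 DAF, against 118, 20.5 and 13.1 CPM at 15 DAF, and Ler at 17 DAF lay below Ws at 15 DAF (log2 fold change 4.09 ± 1.22, adjusted p = 0.154). HSP17.6C (AT1G53540) had 21.8, 3.91 and 65.5 CPM at 17 DAF, against 3.02, 0.853 and 3.13 CPM at 15 DAF (log2 fold change 3.56 ± 0.84, adjusted p = 0.0909). HSP17.6B (AT2G29500) and HSP15.7 (AT5G37670) stood at 2.77 ± 0.87 and 2.21 ± 0.68, with adjusted p of 0.172 and 0.165. In all 4 genes abi3-1 was the highest library of 17 DAF and Ler the lowest. HSFA9, the seed-specific heat shock factor that drives such genes, had 35.2, 1.68 and 27.3 CPM at 17 DAF, against 11.2, 0.853 and 0 CPM at 15 DAF (log2 fold change 2.78 ± 0.89, adjusted p = 0.178), and Ler was the lowest library of 17 DAF by far. ROF1 was the member nearest to no difference, at 0.22 ± 0.59. Small heat shock genes are close in sequence, and reads may be split between them.

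Genes of the raffinose pathway shared no direction, with a median of -0.03 over 8 tested of 11 listed. The galactinol synthases stood highest: beside GOLS2, GOLS1 had 219, 170.4 and 361 CPM at 17 DAF, against 105, 22.7 and 34.4 CPM at 15 DAF (log2 fold change 2.39 ± 0.50, adjusted p = 0.0739), without overlap between the days. Both were called by DESeq2 and without the Ler library of 17 DAF. The stachyose synthase STS, a later step of the pathway, had 62.4, 32.4 and 29.3 CPM at 17 DAF, against 92.4, 61.7 and 45.4 CPM at 15 DAF (log2 fold change -0.70 ± 0.31, adjusted p = 0.301), lower in each pair. MIPS2, which makes inositol, stood at 0.73 ± 0.31, with all 17 DAF libraries above all 15 DAF libraries.

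Antioxidant and metallothionein genes had a median log2 fold change of 0.72, with 9 of 17 higher in all 3 pairs, 0 lower in all 3 and 8 higher at an unadjusted p under 0.05. None was called by the edgeR fit, and DESeq2 called 4. Without the abi3-1 library of 15 DAF the median was 0.36. The seed metallothioneins, which bind zinc, led the list: MT4A had 733, 505 and 959 CPM at 17 DAF, against 287, 73.4 and 48.8 CPM at 15 DAF (log2 fold change 2.62 ± 0.67, adjusted p = 0.107), and MT4B had 101, 30.2 and 145 CPM at 17 DAF, against 28.9, 5.69 and 7.51 CPM at 15 DAF (log2 fold change 2.76 ± 0.65, adjusted p = 0.0906). The catalase CAT3 had 837, 201 and 443 CPM at 17 DAF, against 279, 106 and 80.4 CPM at 15 DAF (log2 fold change 1.66 ± 0.41, adjusted p = 0.0929), while CAT1 stood at 0.14 ± 0.29. The seed peroxiredoxin PER1, common in dry embryos, had 1636, 1690.5 and 1947 CPM at 17 DAF, against 1015, 871 and 614 CPM at 15 DAF, without overlap (adjusted p = 0.203), and MT3 stood lowest at -0.44 ± 0.33.

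**Figure D3:**
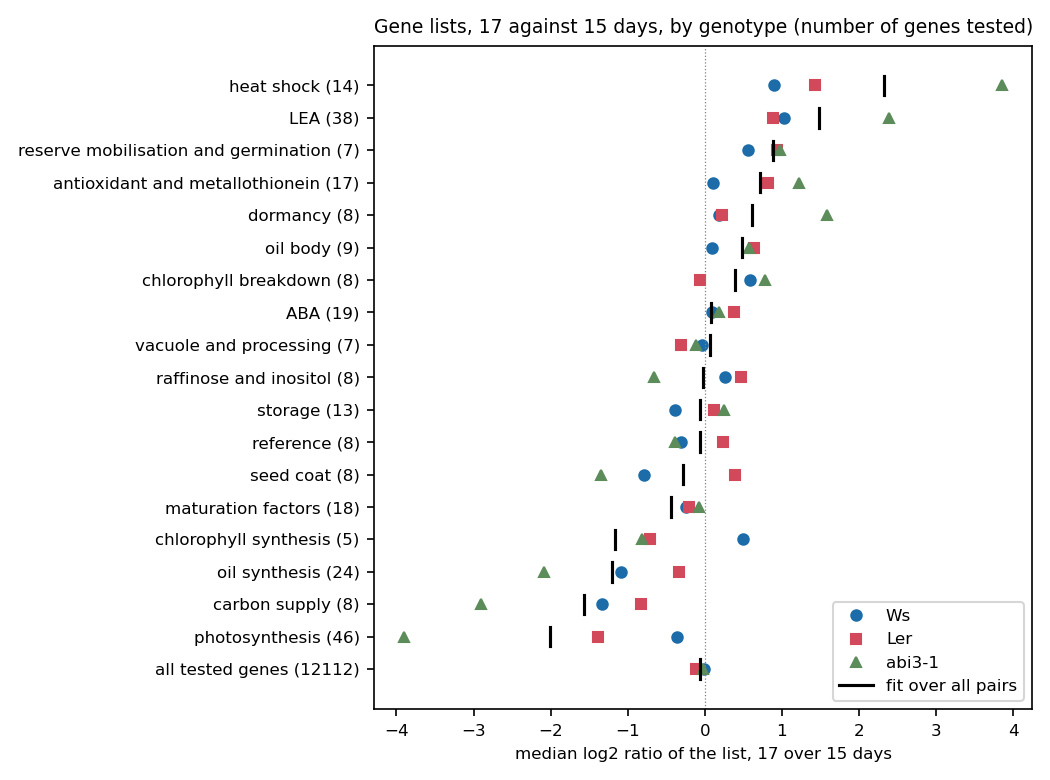
Median log2 ratio of 17 over 15 DAF of each gene list (horizontal axis) in each genotype (symbols) and in the fit over all pairs (bars), with the number of genes tested in brackets. Heat shock and LEA genes lie to the right, and photosynthesis, carbon supply and oil synthesis genes to the left in all 3 genotypes, with abi3-1 the farthest out in each of these 5 lists.

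The regulators of maturation stood on both sides of 0 and none passed the edgeR test. ABI5, a bZIP factor of the ABA response, had 108, 58.7 and 160.2 CPM at 17 DAF, against 49.2, 30.4 and 26.3 CPM at 15 DAF (log2 fold change 1.60 ± 0.39, adjusted p = 0.0931). The days did not overlap. PLATZ1 (AT1G21000), a zinc-binding factor, had 131, 33.5 and 90.8 CPM at 17 DAF, against 59.1, 16.2 and 19.1 CPM at 15 DAF (log2 fold change 1.46 ± 0.37, adjusted p = 0.0984), with Ws ahead on both days. Both passed in DESeq2 (adjusted p = 0.00571 and 0.00744) and in edgeR without the Ler library of 17 DAF (adjusted p = 0.0132 and 0.0298). On the lower side, FUS3, a B3-domain factor of mid maturation, had 13.4, 5.03 and 6.45 CPM at 17 DAF, against 19.4, 16.2 and 28.5 CPM at 15 DAF (log2 fold change -1.40 ± 0.40, adjusted p = 0.141), every 17 DAF library below every 15 DAF library. L1L, the relative of LEC1, had 1.78, 27.9 and 1.98 CPM at 17 DAF, against 11.2, 31.0 and 65.7 CPM at 15 DAF (log2 fold change -2.08 ± 0.76, adjusted p = 0.225), and Ler at 17 DAF was close to its own 15 DAF level.

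ABI3 itself had 137, 36.3 and 65.0 CPM at 17 DAF, against 147, 99.5 and 77.9 CPM at 15 DAF (log2 fold change -0.53 ± 0.35, adjusted p = 0.519). Counts do not show the allele, and the abi3-1 library lay between Ws and Ler at 17 DAF and was the lowest at 15 DAF. The bZIP factors AREB3, DPBF2 and EEL stood at -0.88 ± 0.30, -0.90 ± 0.34 and -0.42 ± 0.30, lower in each pair. The transcripts of LEC1 and LEC2 were too few to test. Among 18 factors tested, 5 were higher and 7 lower in all 3 pairs, with a median log2 fold change of -0.44. That median was -0.27 without the Ler library of 15 DAF, -0.14 without that of 17 DAF and -0.04 without all Ler libraries. The 8 dormancy genes had a median log2 fold change of 0.61, with 6 higher and 2 lower in the fit and 0 called. In all 3 pairs 3 were higher and 2 lower. MFT, which slows germination, was 1 of the 2 lower genes. It had 15.6, 76.0 and 14.9 CPM at 17 DAF, against 49.2, 101 and 112 CPM at 15 DAF (log2 fold change -1.53 ± 0.46, adjusted p = 0.152), with Ler at 17 DAF again above Ws at 15 DAF. Without that Ler library MFT fell by the test, at -2.32 (adjusted p = 0.00662). DOG1, the dormancy gene of many natural variants, had 148, 52.0 and 31.7 CPM at 17 DAF, against 170.1, 63.4 and 81.0 CPM at 15 DAF (log2 fold change -0.63 ± 0.44, adjusted p = 0.541). On the higher side, DOGL2 had 77.6, 73.7 and 158 CPM at 17 DAF, against 44.9, 38.7 and 16.6 CPM at 15 DAF (log2 fold change 1.57 ± 0.59, adjusted p = 0.233), without overlap between the days. DOGL4 stood at 0.65 ± 0.41 and SOM, a repressor of germination in the dark, at 0.88 ± 0.38, both higher in each pair.

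Genes of oil synthesis had a median log2 fold change of -1.20 over 24 genes, with 17 lower and 1 higher in all 3 pairs and 16 lower and 0 higher at an unadjusted p under 0.05. None was called, while DESeq2 called 9 lower and edgeR without the Ler library of 17 DAF 13 lower. Without the abi3-1 library of 17 DAF the median over these genes was -0.70. The median in Ler was -0.33, against -1.09 in Ws and -2.08 in abi3-1. KAS1, a condensing enzyme of plastid fatty acid synthesis, had 27.2, 113 and 20.8 CPM at 17 DAF, against 85.5, 175 and 194 CPM at 15 DAF (log2 fold change -1.81 ± 0.43, adjusted p = 0.0924). BCCP2, the biotin carrier of acetyl-CoA carboxylase, had 5.79, 42.5 and 5.46 CPM at 17 DAF, against 25.5, 68.5 and 51.3 CPM at 15 DAF (log2 fold change -1.91 ± 0.46, adjusted p = 0.0929). In both genes Ws and abi3-1 at 17 DAF were below all 15 DAF libraries and Ler was not. CAC2 and CAC3, further subunits of that carboxylase, stood at -1.74 ± 0.42 and -1.82 ± 0.42. The factor WRI1, which drives these genes, had 7.13, 55.9 and 12.9 CPM at 17 DAF, against 37.6, 51.7 and 97.3 CPM at 15 DAF (log2 fold change -1.63 ± 0.52, adjusted p = 0.176), and DGAT1, the last step of oil assembly, stood at 0.33 ± 0.34.

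The carbon supply list, enzymes that turn sucrose into precursors of fatty acids, had a median log2 fold change of -1.57 over 8 genes, with 5 lower and 1 higher in all 3 pairs. The edgeR fit called 0, with 6 lower and 1 higher at an unadjusted p under 0.05, while DESeq2 called 4 lower and edgeR without the Ler library of 17 DAF 6 lower. The median was -1.03 without the abi3-1 library of 17 DAF. SUS2, a sucrose synthase of seeds, had 4.90, 19.0 and 0.992 CPM at 17 DAF, against 15.1, 109 and 209 CPM at 15 DAF (log2 fold change -3.46 ± 0.76, adjusted p = 0.0800). LPD1, a subunit of plastid pyruvate dehydrogenase, had 4.46, 10.1 and 2.98 CPM at 17 DAF, against 14.2, 42.7 and 62.6 CPM at 15 DAF (log2 fold change -2.65 ± 0.54, adjusted p = 0.0739). For LPD1 every 17 DAF library was below every 15 DAF library. The plastid enolase ENO1 and pyruvate kinase PKP-BETA1 stood at -2.59 ± 0.53 and -1.58 ± 0.36. The other sucrose synthase, SUS3, lay the other way, with 324, 202 and 494 CPM at 17 DAF, against 229, 134 and 127 CPM at 15 DAF (log2 fold change 1.02 ± 0.41, adjusted p = 0.262). SUS2 and the called gene AT5G49180 are neighbours on chromosome 5, the window in front of AT5G49180 running into SUS2, so reads at that border may be counted to either.

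Storage protein genes stood near the median of all genes, at -0.06 over 13 genes, with 1 higher and 1 lower in all 3 pairs and 0 called by edgeR. The cruciferin CRC had 265929, 332211 and 361611 CPM at 17 DAF, against 347961, 328847 and 238764 CPM at 15 DAF (log2 fold change 0.03 ± 0.77, adjusted p = 0.992), and it was lower in Ws and higher in abi3-1. The cupin gene AT4G36700 was the member farthest from 0, with 468, 892 and 287 CPM at 17 DAF, against 1096, 2577 and 1786 CPM at 15 DAF (log2 fold change -1.79 ± 0.49, adjusted p = 0.127). It passed in DESeq2 (adjusted p = 0.00606) and in edgeR without the Ler library of 17 DAF (adjusted p = 0.0345), the 1 storage gene that each of these called. SESA5, a 2S albumin, had 62184, 17065 and 15341 CPM at 17 DAF, against 46378, 11329 and 5710.3 CPM at 15 DAF (log2 fold change 0.77 ± 0.54, adjusted p = 0.547). The albumin genes SESA1 to SESA4 are near-identical neighbours, so their counts may be split between them. Genes of oil body proteins had a median of 0.49 over 9 genes, which was 0.80 without the Ws library of 15 DAF and 0.30 without the Ler or the abi3-1 library of 15 DAF. OLEO3, an oleosin, was lower in each pair, with 165, 688 and 91.3 CPM at 17 DAF, against 344, 952 and 792 CPM at 15 DAF (log2 fold change -1.39 ± 0.52, adjusted p = 0.234), while OLEO1, OLEO2 and OLEO4 were higher in each pair, at 0.49 ± 0.53, 0.63 ± 0.54 and 0.59 ± 0.50. OLEO3 passed in edgeR without the Ler library of 17 DAF (adjusted p = 0.0261).

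Photosynthesis genes, active in the green embryo of mid maturation, had the lowest list median, -2.00 over 46 tested of 53 listed. All 46 stood below 0 in the fit, 28 were lower in all 3 pairs, 35 were lower at an unadjusted p under 0.05 and 0 were called. DESeq2 called 12 lower, and edgeR without the Ler library of 17 DAF 16 of 45. The median was -1.25 without the abi3-1 library of 15 DAF and -1.29 without that of 17 DAF. The pairs had medians of -0.36, -1.38 and -3.90. PSAK, a subunit of photosystem I, had 0.446, 5.59 and 0.992 CPM at 17 DAF, against 2.59, 31.8 and 52.6 CPM at 15 DAF (log2 fold change -3.50 ± 0.67, adjusted p = 0.0726). PSBQ-2, of the oxygen-evolving complex, had 0.891, 10.1 and 2.48 CPM at 17 DAF, against 2.59, 70.2 and 60.1 CPM at 15 DAF (log2 fold change -3.19 ± 0.70, adjusted p = 0.0800). In both genes Ws at 15 DAF was already below Ler at 17 DAF. PSAG and the light-harvesting protein LHCB4.1 stood at -2.44 ± 0.60 and -1.53 ± 0.39, and RBCS1A, a small subunit of Rubisco, had 66.0, 168 and 15.9 CPM at 17 DAF, against 106, 437 and 312 CPM at 15 DAF (log2 fold change -2.00 ± 0.63, adjusted p = 0.175). PETC and RBCS3B were nearest to 0, at -0.14 ± 0.33 and -0.03 ± 0.64. In whole seeds, fewer green cells and less RNA per cell cannot be told apart. Members of the LHCB and RBCS families are close copies, and reads may be split between them.

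Genes for the use of reserves after germination stood higher at 17 DAF, with a median of 0.89 over 7 tested of 11 listed, 6 of them higher in all 3 pairs and 4 at an unadjusted p under 0.05. None was called, and DESeq2 called 1. MLS, the malate synthase of the glyoxylate cycle, had 1645, 1117 and 2123 CPM at 17 DAF, against 828, 447 and 491 CPM at 15 DAF (log2 fold change 1.48 ± 0.42, adjusted p = 0.135). The thiolase PED1, of fatty acid oxidation, had 523, 581 and 453 CPM at 17 DAF, against 345, 251 and 219 CPM at 15 DAF (log2 fold change 0.96 ± 0.35, adjusted p = 0.214). In both genes all 17 DAF libraries were above all 15 DAF libraries. The gibberellin-regulated gene GASA2 and the gluconeogenic enzyme PCK1 stood at 1.26 ± 0.42 and 0.81 ± 0.34.

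The next step, from 17 to 21 DAF in the same genotypes, held many more called genes. This later step covers more days than the early one, and no value was scaled by time. It had 473 genes called higher (3.91%) and 1313 called lower (10.8%) at 21 DAF, a split that turned to 3351 higher and 830 lower with library totals. Both steps use the 17 DAF libraries, so the difference between the steps was tested within the same fit, as the early minus the late log2 fold change. It passed for 271 genes (2.24%), of which 260 had a positive difference and 11 a negative one. The storage list had a median of -0.06 in the early step and -2.27 in the late step, oil synthesis -1.20 and -2.67, LEA 1.48 and 0.73, heat shock 2.33 and 0.54, and photosynthesis -2.00 and -1.53.

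The 5 positive differences with the smallest p belonged to genes that fell in the late step. The glyoxal oxidase-related gene AT1G19900 had 510.2, 1217 and 706 CPM at 15 DAF, 173, 1217 and 379 CPM at 17 DAF and 1.27, 7.55 and 1.63 CPM at 21 DAF. Its log2 fold change was -0.84 ± 0.38 in the early and -7.33 ± 0.52 in the late step, a difference of 6.49 ± 0.67 (adjusted p = 0.00222). The cupin gene AT3G04190 stood at -0.72 ± 0.34 and -7.23 ± 0.53, and PDF1, an epidermal gene of the embryo, at -0.37 ± 0.32 and -5.33 ± 0.39. The ribonuclease RNS1 stood at 0.38 ± 0.35 and -5.88 ± 0.52, and GSR2 at -0.56 ± 0.30 and -5.41 ± 0.40 (each adjusted p of the difference = 0.00222). The storage albumin SESA2 also differed, at -0.55 ± 0.55 and -5.11 ± 0.65 (adjusted p = 0.0211), as did the bZIP factor DPBF2, at -0.90 ± 0.34 and -4.53 ± 0.45 (adjusted p = 0.0114), and GASA2, at 1.26 ± 0.42 and -1.87 ± 0.43 (adjusted p = 0.0326).

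Those named with a negative difference rose in the late step, while their early step was not called. SIP2, a seed imbibition protein related to enzymes that act on raffinose sugars, had 6.91, 7.39 and 8.45 CPM at 15 DAF, 9.36, 7.82 and 4.96 CPM at 17 DAF and 140.2, 63.0 and 129 CPM at 21 DAF. Its log2 fold changes were -0.07 ± 0.41 and 3.86 ± 0.40, a difference of -3.93 ± 0.73 (adjusted p = 0.0148). UPM1, of siroheme synthesis, stood at -1.03 ± 0.38 and 2.36 ± 0.38 (adjusted p of the difference = 0.0237), the molybdate transporter MOT2 at -0.79 ± 0.47 and 2.98 ± 0.44 (adjusted p = 0.0333), and AT5G24490, annotated as a 30S ribosomal protein, at -1.10 ± 0.47 and 3.25 ± 0.44 (adjusted p = 0.0167). None of the 7 genes called in the early step passed the test of the difference between the steps, the smallest adjusted p of the difference being 0.223 for AT1G67920.

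**Figure D4:**
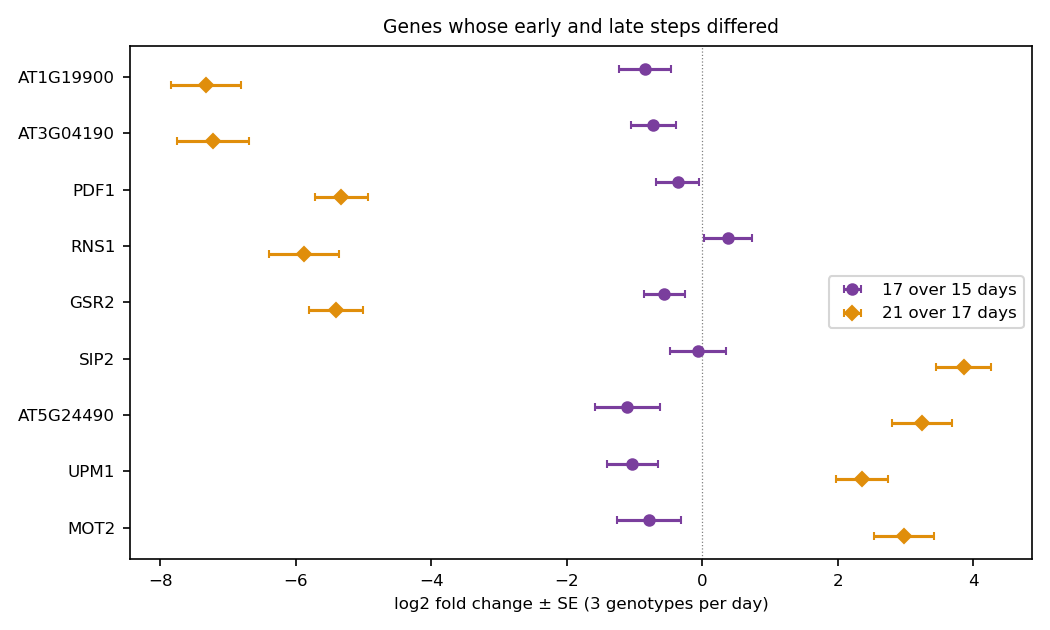
Log2 fold change with its standard error (horizontal axis) of 9 genes whose early and late steps differed, for 17 over 15 DAF (circles) and 21 over 17 DAF (diamonds). The early values lie between -1.10 and 0.38, while the late ones lie below -5 in 5 genes and above 2 in 4 genes.

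To ask whether the early step depends on tolerance, it was compared with the same step in the desiccation intolerant mutants fus3-3 (of the Col-0 ecotype), lec1-1 (of Ws) and abi3-5 (of Ler), in a fit of 18 libraries. No gene passed the test of the difference, 0 of 15632 (0%), with 729 at an unadjusted p under 0.05. DESeq2 called 8 and limma on the deposited signal 0. The medians lay apart for photosynthesis, at -1.94 in tolerant and 0.80 in intolerant seeds over 52 genes, with a median difference of -2.82. For heat shock genes they were 2.16 and -0.04 over 18 genes, and for LEA genes 1.42 and 0.72 over 43. Over all genes they were -0.07 and -0.04. The tolerant medians pool unequal pairs. In the fit of 9 libraries the medians in Ws, Ler and abi3-1 were -0.36, -1.38 and -3.90 for photosynthesis and 0.90, 1.43 and 3.86 for heat shock genes. The farthest out, abi3-1, is the genotype whose sample labels give its seeds as intolerant. Without all abi3-1 libraries the medians of that fit were -1.10 and 1.16. The intolerant medians also pool mutants that did not move together. In fus3-3, lec1-1 and abi3-5 heat shock genes took 0.130, 0.0627 and 0.606% of all counts at 15 DAF. At 17 DAF they took 0.209, 0.343 and 0.281%. Photosynthesis genes took 0.459, 1.26 and 1.54% in the same order at 15 DAF, and 1.81, 3.04 and 1.21% at 17 DAF. Both shares thus rose in fus3-3 and lec1-1 and fell in abi3-5.

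Among the genes with the smallest p of this difference was OMTF3, an O-methyltransferase family gene. It had 23.9, 6.85 and 38.9 CPM at 17 DAF, against 3.25, 1.24 and 0.919 CPM at 15 DAF in tolerant Ws, Ler and abi3-1, and 77.1, 91.2 and 78.8 CPM at 17 DAF, against 45.4, 84.3 and 70.9 CPM at 15 DAF in intolerant fus3-3, lec1-1 and abi3-5. The intolerant seeds were thus above the tolerant ones on both days (difference of the log2 fold changes 3.32 ± 0.78, adjusted p = 0.706). CYS2, a protease inhibitor of the cystatin family, had 61.5, 37.7 and 36.6 CPM at 17 DAF, against 119, 136 and 116 CPM at 15 DAF in tolerant seeds, and 218, 205 and 106 CPM at 17 DAF, against 72.4, 223 and 40.4 CPM at 15 DAF in the intolerant mutants. It was lower at 17 DAF in every tolerant pair and higher in 2 of 3 intolerant pairs (difference -2.48 ± 0.57, adjusted p = 0.706). The transporter gene AT1G68570 had a difference of 2.92 ± 0.69, and the factor GATA3 one of -3.29 ± 0.78 (adjusted p = 0.706 for both).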

How the data were processed

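RNA of whole developing seeds was sequenced. The deposited table holds raw counts for 33597 loci, which per the submitters' processing notes refer to TAIR10. The authors' deposited normalized signal is, per those notes, linked to edgeR, with no version given. The aligner, the counter and the use of strand are not given in the sources used here.

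The tests on counts ran in edgeR 4.0.16 under R 4.3.3 (filterByExpr, minimum count 10, TMM, quasi-likelihood F test, Benjamini-Hochberg adjustment), and SE is the log2 fold change over the root of F. The deposited signal was used only as log2(signal + 2) in limma 3.58.1, and DESeq2 1.42.0 was an alternative. The fit was tested on simulated data. Pairs are libraries of 1 genotype, so genotype is the block in every fit unless stated.

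Members and the 21 gene lists (348 loci) were chosen with earlier results of these data known. Named are up to 4 list members of smallest p, tested maturation factors and dormancy genes, the called genes, the 10 higher and 10 lower genes of smallest p that share a direction in all pairs with a mean of at least 20 counts, and the 5 of smallest p per direction in the other comparisons. EM1, EM6, RAB18, AT3G02480, CRC, SESA1 to SESA4, OLEO1, OLEO2, WRI1, DGAT1, SUS3, RBCS1A, PETC, RBCS3B, ROF1, CAT1, MT3, PER1 and AT2G44060 were added after their values were seen. Intervals cover counting error only. Names and coordinates are from RefSeq's TAIR10.1 annotation, which named 12020 of 12112 tested loci, or from the lists where a locus ID stands beside the name.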

Additional observations from a re-analysis of the deposited data

Results flagged for a closer look

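The early and the late step differed in 271 genes by the test of the difference itself (edgeR, adjusted p under 0.05). Both steps use the 17 DAF libraries. The late step covers more days than the early one, and no value was scaled by time. Of those named, the early minus late log2 difference was 6.49 for AT1G19900, 6.50 for AT3G04190, 4.97 for PDF1, 6.26 for RNS1 and 4.85 for GSR2. It was -3.93 for SIP2, -4.35 for AT5G24490, -3.39 for UPM1 and -3.77 for MOT2. The groups of 3 genotypes per day were not tested for a single sample far from the others.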

How the results depend on the processing

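The count of 7 genes in the early step was unstable. It was 25 with library totals (15 higher and 10 lower, against 3 and 4), 651 of 21024 with no filter, 299 with DESeq2, 15 with a robust fit, 38 with limma on the deposited signal, 1 with a minimum change of 2-fold, 0 without Ws, 210 without Ler and 0 without abi3-1. Leaving out 1 library gave 0 to 674: 674 without Ler at 17 DAF, 157 without Ws at 15, 28 without Ler at 21, 5 without Ws at 21, 4 without abi3-1 at 17, 1 without Ws at 17 or abi3-1 at 21, and 0 without Ler or abi3-1 at 15 (1162 and 738 genes at an unadjusted p under 0.05). With no replicate block, so without pairing by genotype, it was 0 (1391 genes at an unadjusted p under 0.05). Against the 1786 genes of the late step, library totals gave 4181 (3351 higher and 830 lower, against 473 and 1313), leaving out Ws 713, leaving out Ler 1159, and 1 library 995 to 1972 (995 without Ws at 17, 1154 without Ws at 21 and 1151 without Ler at 21). Against the 271 differences between steps, library totals gave 85, no filter 601, limma 143, no replicate block 91, leaving out Ws 21, leaving out Ler 161, and 1 library 76 to 279 (76 without Ws at 17, 154 without Ws at 21, 85 without Ler at 15 and 171 without abi3-1 at 21). The comparison with intolerant seeds gave 60 with no filter, 8 with DESeq2 and 0 to 0 when 1 library was left out. The causes were not tested. Library totals moved the median of all genes in the early step to -0.27, against -0.06.

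The list medians of LEA (1.13 to 1.90), heat shock (1.16 to 3.58), oil synthesis (-1.63 to -0.70), carbon supply (-2.26 to -0.92) and photosynthesis (-2.91 to -1.10) kept their sign in all 21 alternatives, while those of storage, raffinose, ABA, chlorophyll synthesis, seed coat, silique wall, reference and vacuole genes changed sign in some. The early step of SIP2 changed sign without Ler at 15 DAF (0.11), without abi3-1 at 17 DAF (0.26) and without abi3-1 (0.24), against -0.07, and was -0.35 without Ler at 17 DAF. With 1 pooled library for each genotype and day, a change in 1 genotype cannot be told apart from its library.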

Other observations

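Of the other lists edgeR called 0 members in the early step, while further fits called some. ABA genes had a median log2 fold change of 0.08 over 19 tested of 26 listed, with 3 higher and 3 lower at an unadjusted p under 0.05. DESeq2 called 1 higher, and edgeR without the Ler library of 17 DAF 2 higher and 1 lower. AHG1, a phosphatase that curbs ABA signalling in seeds, had 107, 158 and 131 CPM at 17 DAF, against 75.1, 49.2 and 56.3 CPM at 15 DAF (log2 fold change 1.14 ± 0.33, adjusted p = 0.138, and 0.0391 in DESeq2), without overlap between the days. CYP707A1, an enzyme that breaks down ABA, had 3.57, 1.12 and 0 CPM at 17 DAF, against 9.93, 7.68 and 3.13 CPM at 15 DAF (log2 fold change -2.35 ± 0.72, adjusted p = 0.160).

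Genes of chlorophyll breakdown had a median of 0.40 over 8 tested of 10 listed. NYE2, a stay-green protein that starts chlorophyll breakdown, had 368, 128 and 233 CPM at 17 DAF, against 141, 72.2 and 71.6 CPM at 15 DAF (log2 fold change 1.31 ± 0.37, adjusted p = 0.138), higher in each pair. It passed in DESeq2 (adjusted p = 0.0183) and in edgeR without the Ler library of 17 DAF (adjusted p = 0.0394). Chlorophyll synthesis genes had a median of -1.16 over 5 tested of 8, but medians of 0.50, -0.71 and -0.81 in the pairs. Only 1 was lower in all 3 pairs. Counts were low in members such as CHLI1 and PORB, with 44 and 61 over the 6 libraries, and CAO stood at 0.38 ± 0.43. Among vacuolar genes (median 0.06 over 7 of 9), the processing enzyme ALPHA-VPE had 16.0, 26.3 and 11.9 CPM at 17 DAF, against 24.2, 137 and 179 CPM at 15 DAF (log2 fold change -2.37 ± 0.53, adjusted p = 0.0800), lower in each pair, while BETA-VPE stood at 0.45 ± 0.43. ALPHA-VPE passed in DESeq2 (adjusted p = 0.00128), which called 2 vacuolar genes lower, and in edgeR without the Ler library of 17 DAF (adjusted p = 0.0460), which called 1.

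Seed coat genes had a median of -0.28 over 8 tested of 18 listed, with medians of -0.79, 0.39 and -1.35 in the pairs. Without the Ler library of 17 DAF the median was -1.22, with 6 of 8 at an unadjusted p under 0.05 and 1 called lower by edgeR. It was -0.71 without Ler at 15 DAF, -0.11 without Ws at 17 DAF, and, leaving out an abi3-1 library, -0.10 (15 DAF) or 0.04 (17 DAF). TT4, the chalcone synthase of seed coat flavonoids, had 1.78, 91.6 and 3.47 CPM at 17 DAF, against 29.4, 73.4 and 109 CPM at 15 DAF (log2 fold change -1.96 ± 0.93, adjusted p = 0.343), and Ler at 17 DAF stayed within the range of the 15 DAF libraries. Of 8 reference genes, with a median of -0.06, none reached an unadjusted p under 0.05 and DESeq2 called 0. Without the Ler library of 17 DAF their median was -0.27 and edgeR called 1 lower.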
